A study of Mus musculus with 12 samples.

Results

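Macrophage genes were followed across mouse thymus holding T cell acute lymphoblastic leukemia and healthy thymus. The set holds 10 of the 51734 gene symbols in the files, chosen by name as genes of macrophages: Lyz2, Csf1r, Adgre1, Itgam, C1qa, C1qb, C1qc, Cd68, Mrc1 and Mertk. All 10 were found in all 12 libraries of polyadenylated RNA, and all 10 passed the filter on low counts that left 40484 genes for testing. Of the libraries, 9 are tumors (tumors 1 to 9) from thymus of mice in which IL-7Rα, a chain of the interleukin-7 receptor, is induced by doxycycline from a tetracycline-inducible allele, and 3 are thymus of healthy control mice. All are given as strain F5. The labels name neither the promoter that drives the induction nor ages, times or pooling, and do not say whether each library is a separate animal, so a p-value here reflects no more than how these samples scatter, and that scatter may be technical. The study set the tumors against healthy thymus to describe the leukemias that follow receptor induction.

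Macrophages are resident phagocytes that clear dying cells and debris. In the thymus they take up the many thymocytes that die during selection. They depend on signals through the receptor Csf1r and on the transcription factor PU.1, they bind dying cells through bridging molecules and receptors such as Mertk, and they secrete C1q, the first component of the classical complement pathway. Several of the 10 genes are not private to them. Lyz2 and Itgam are also known from neutrophils and monocytes, and Mrc1 from some endothelial cells.

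Libraries totalled 11617724 to 34769946 estimated counts in the tumors and 8133152 to 12019924 in the controls. They fell into classes of unlike composition that the labels do not name. The mitochondrial part of the counts was 31.6% to 69.3% for tumors 1 to 6, 2.54% to 11.1% for tumors 7 to 9 and 0.0949% to 6.73% for controls. Of 1417 olfactory and vomeronasal receptor genes, which are not known to be used in thymus, 45.3% to 92.7% had a count in a tumor 1 to 6 library, 98.7% to 99.2% in a tumor 7 to 9 library and 99.1% to 99.4% in a control. Il7r, the induced gene, ranged over tumors 1 to 6 between 33.3 and 513 CPM (counts scaled to library size with TMM factors, the trimmed mean of M-values), over tumors 7 to 9 between 5.03 and 5.63 CPM and over the controls between 2.52 and 3.20 CPM. The 12 T cell markers summed to 2172 to 3412 CPM in tumors 1 to 6 and were low in the libraries labelled as tumors 7 to 9 (88.7 to 180 CPM) and as control thymus (65.4 to 156 CPM). The split into tumors 1 to 6 and 7 to 9 follows library composition and is no group of the study, and in tumors 1 to 6 leukemia and composition cannot be told apart against the controls.

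Some macrophage gene values exceeded the pooled level of the receptor genes in tumors 1 to 6, and none did in the other libraries. Levels per kilobase of effective length were divided by the pooled level per kilobase of the receptor genes in the same library. In tumors 1 to 6, 37 of 60 such values (10 genes in 6 libraries) were above 1, with a range of 0.278 to 51.3. Without Lyz2, 31 of 54 were, and Mertk was above 1 in tumor 1 alone. In tumors 7 to 9, 0 of 30 were above 1 (0.151 to 0.860), and in the controls 0 of 30 were (0.193 to 0.786). This ratio was not taken over all genes. The 10 highest receptor genes held 27.8% to 64.9% of the summed receptor CPM in tumors 1 to 6. In the other libraries they held 25.5% to 29.0%. Against the median receptor gene in place of the pool, 60 of 60 values were above it in tumors 1 to 6, 23 of 30 in tumors 7 to 9 and 23 of 30 in the controls; that median was 0 in tumor 5. In tumors 7 to 9 and the controls, no macrophage gene was denser in reads than the pooled receptor genes. The macrophage gene values there give no measure of macrophage RNA above that pooled level.

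Lyz2, which encodes lysozyme M and lies on the minus strand at chr10:117277331-117282321 (GRCm38), was the one member whose tumor 1 to 6 libraries all lay above every control in CPM. Its level was 37.7, 112, 47.9, 16.8, 43.0 and 7.14 CPM in tumors 1 to 6, 0.636, 1.69 and 0.939 CPM in tumors 7 to 9, and 1.03, 0.837 and 1.01 CPM in controls 1 to 3. Tumors 1 to 6 did not overlap the controls, whereas tumors 7 to 9 did. Behind these levels stood 112 to 1079 counts per library for tumors 1 to 6, 11 to 40 for tumors 7 to 9 and 23 to 31 for the controls. Lyz1, a close relative with which reads could be shared, had 2, 7, 1, 4, 23 and 0 counts in tumors 1 to 6. It had 15 to 27 in tumors 7 to 9 and 26 to 32 in the controls. How shared reads were divided between Lyz1 and Lyz2 was not tested. Of 20542 genes with a mean of at least 1 CPM in tumors 1 to 6, 39.9% were likewise above every control in all 6 of these tumors.

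Csf1r, the receptor for the macrophage growth factors CSF1 and IL-34 (plus strand, chr18:61100598-61132149), stood at 12.2, 16.9, 8.27, 4.64, 3.31 and 1.40 CPM in tumors 1 to 6. It was at 3.06, 3.00 and 3.52 CPM in tumors 7 to 9 and 3.68, 2.73 and 3.44 CPM in the controls. In CPM, tumors 1 to 4 were above the highest control, tumor 5 lay within the control range and tumor 6 below it. By TPM, Csf1r was at 0.141 to 0.686 in tumors 1 to 6, below every control (1.60 to 1.77). The orders in all gene paragraphs are in CPM with TMM factors, which were 0.282 to 0.852 in tumors 1 to 6 and 2.52 to 3.16 in the controls. By TPM, apart from Lyz2, only C1qa and Cd68 had a tumor 1 to 6 library above the highest control, in tumor 1 alone. Adgre1, which encodes the surface protein F4/80 (plus strand, chr17:57358691-57483527), was at 10.7, 12.6, 3.21, 3.55, 5.46 and 1.72 CPM in tumors 1 to 6, at 2.72, 1.61 and 1.84 CPM in tumors 7 to 9 and at 1.96, 2.26 and 2.91 CPM in the controls. Here tumors 1 to 5 exceeded the highest control and tumor 6 did not.

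Cd68, a glycoprotein of the late endosome and lysosome (minus strand, chr11:69664213-69666153), was at 11.8, 11.1, 7.28, 2.32, 1.31 and 4.14 CPM in tumors 1 to 6. In tumors 7 to 9 it was at 1.04, 1.57 and 0.771 CPM and in the controls at 1.39, 0.764 and 0.850 CPM. All of tumors 1 to 6 but tumor 5 lay above the highest control. Itgam, the CD11b chain of complement receptor 3 (plus strand, chr7:128062640-128118491), was at 6.52, 36.2, 34.4, 13.2, 12.8 and 6.06 CPM in tumors 1 to 6, 9.02, 12.99 and 8.58 CPM in tumors 7 to 9, and 10.9, 7.31 and 7.93 CPM in the controls. Tumors 2 to 5 were above the controls and tumors 1 and 6 below them. The Itgam transcripts that carried these counts also differed: the transcript Itgam-203 took 58.2%, 99.95% and 85.3% of the gene's counts in tumors 3, 4 and 5, and 41.3% in tumor 6, but 0% and 9.33% in tumors 1 and 2, 1.08% to 41.7% in tumors 7 to 9 and at most 0.680% in a control. Estimated counts divide shared reads between such near-identical transcripts, so the split is uncertain.

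Mertk, a receptor kinase through which macrophages engulf dying cells (plus strand, chr2:128698956-128802894), was at 11.5, 6.52, 2.72, 3.14, 1.91 and 1.08 CPM in tumors 1 to 6. Its levels were 4.51, 3.43 and 4.36 CPM in tumors 7 to 9 and 4.41, 3.20 and 3.76 CPM in the controls. Tumors 1 and 2 were thus above the controls and tumors 3 to 6 below them. Mrc1, the mannose receptor (plus strand, chr2:14229392-14332057), was at 25.5, 6.52, 2.10, 4.64, 3.87 and 4.78 CPM in tumors 1 to 6, at 4.45, 3.94 and 6.07 CPM in tumors 7 to 9, and at 4.74, 4.73 and 4.77 CPM in the controls. Tumor 1 stood alone at the high end, and tumors 3 to 6 were close to or below the controls.

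**Figure D1:**
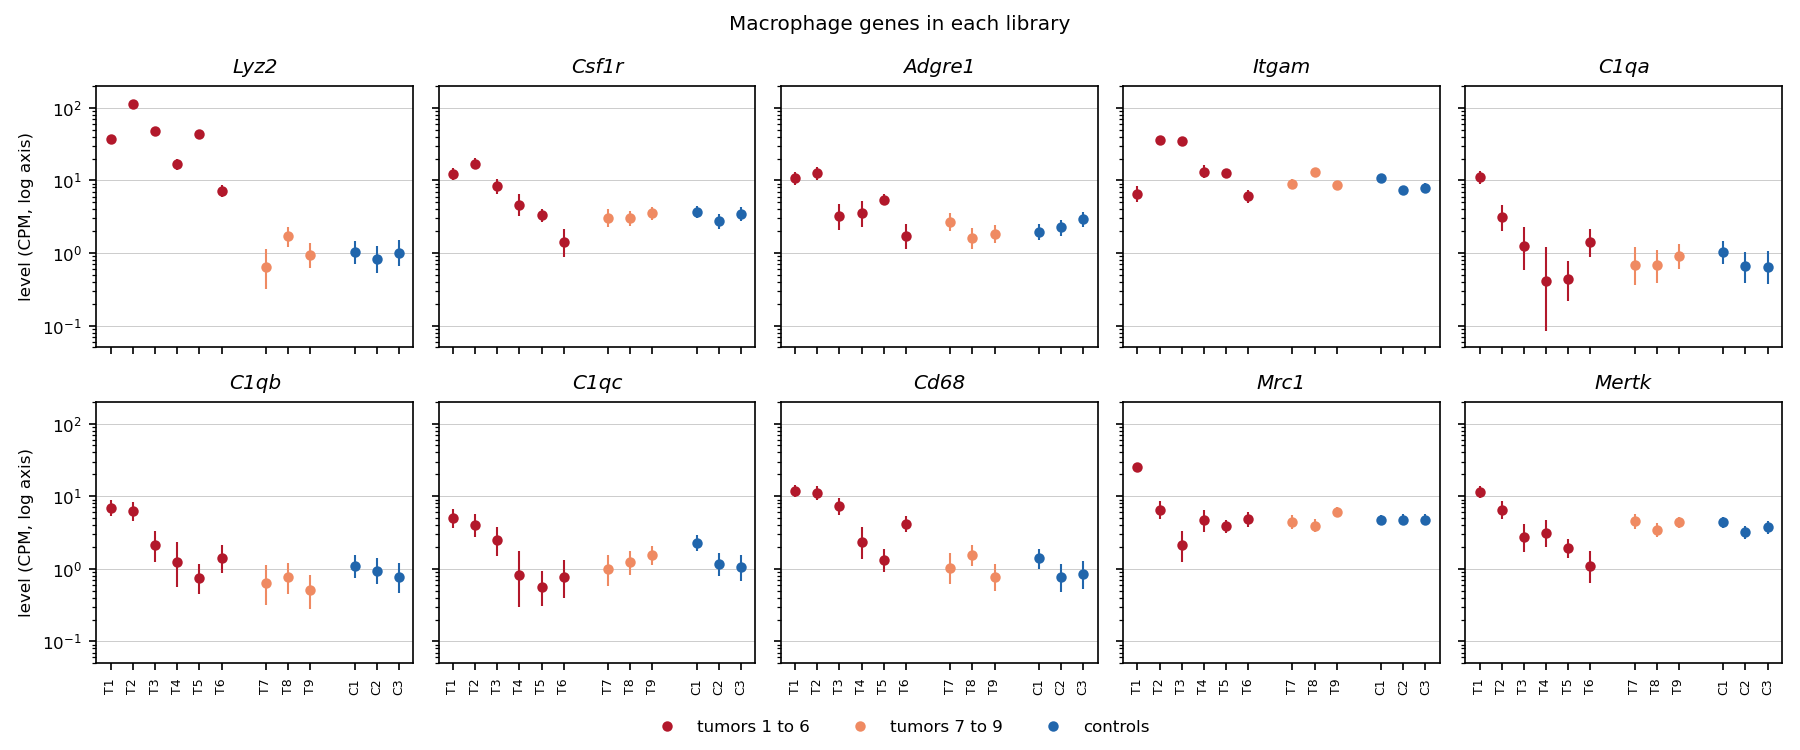
Level of each macrophage gene in every library, in CPM with TMM factors on a log axis; points are libraries (T, tumor; C, control) and bars the 95% exact Poisson interval of the count. Lyz2 is above all controls in tumors 1 to 6, while each other gene is highest in tumor 1 or 2 and does not exceed the highest control in at least 1 of the 6 tumors.

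The 3 chains of C1q are encoded next to each other on the minus strand of chromosome 4 (GRCm38), C1qb at 136880129 to 136886187, C1qc at 136889804 to 136893065 and C1qa at 136895917 to 136898803. In CPM, tumor 1 was highest for each chain and tumor 2 next. C1qa was at 11.0, 3.13, 1.23, 0.409, 0.438 and 1.40 CPM in tumors 1 to 6, at 0.694, 0.677 and 0.905 CPM in tumors 7 to 9, and at 1.03, 0.655 and 0.647 CPM in the controls. C1qb was at 6.84, 6.26, 2.10, 1.23, 0.757 and 1.40 CPM in tumors 1 to 6, at 0.636, 0.762 and 0.503 CPM in tumors 7 to 9, and at 1.09, 0.946 and 0.769 CPM in the controls. For C1qc the values were 5.02, 4.04, 2.47, 0.819, 0.558 and 0.765 CPM in tumors 1 to 6, 0.982, 1.23 and 1.54 CPM in tumors 7 to 9, and 2.29, 1.16 and 1.05 CPM in the controls. C1qb was above every control in 5 of these 6 tumors, C1qa in 4 and C1qc in 3.

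Per kilobase, the chains made up 31.0% ± 12.5 (C1qa), 41.6% ± 7.74 (C1qb) and 27.4% ± 7.53 (C1qc) of their sum in tumors 1 to 6 (SD, n = 6). In the controls the shares were 26.7% ± 1.63, 31.2% ± 4.80 and 42.1% ± 5.40 (SD, n = 3) for the same chains. Each chain in a control was at only 0.237 to 0.741 times the pooled receptor level, so the shares there give no measure of the C1q chains of macrophages. In tumors 4 and 5 all the chains were below that level as well. The difference in shares between tumors 1 to 6 and the controls is therefore no measure of a change in C1q. Tumor 1 had the largest C1qa share, 50.7%. Only 18 to 214 counts in a tumor 1 to 6 library and 61 to 133 in a control stood behind these shares, which limits their precision.

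**Figure D2:**
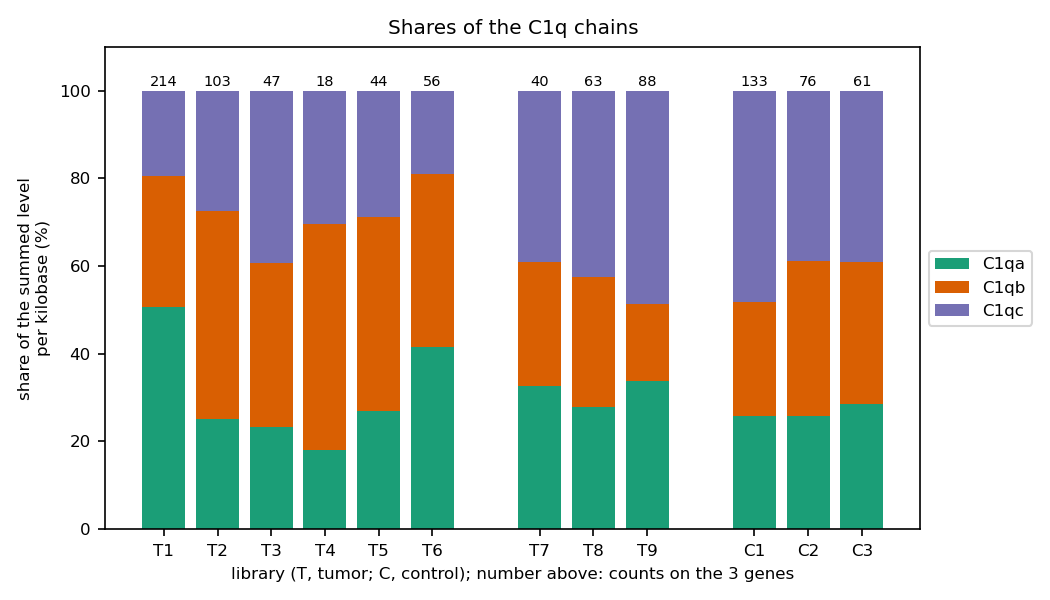
Shares of C1qa, C1qb and C1qc in their summed level per kilobase in each library, in percent, with the number of counts on the 3 genes above each bar. C1qc has the largest share in tumors 7 to 9 and the controls, C1qa in tumors 1 and 6, C1qb in tumors 2, 4 and 5, and C1qc also in tumor 3 (39.2%). In tumors 4 and 5, tumors 7 to 9 and the controls, each chain was below the pooled level of the receptor genes.

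The promoters of C1qb, C1qc and Cd68 are shown because these genes varied together most closely across tumors 1 to 6. RefSeq start sites on GRCm38.p6 gave windows of 250 bases before the start for 7 of the 10 members. The core GAGGAA, read on both strands, is the purine-rich core of the binding site of PU.1, and capitals mark it or its reverse complement TTCCTC.
C1qb, chr4:136886201-136886450, minus strand: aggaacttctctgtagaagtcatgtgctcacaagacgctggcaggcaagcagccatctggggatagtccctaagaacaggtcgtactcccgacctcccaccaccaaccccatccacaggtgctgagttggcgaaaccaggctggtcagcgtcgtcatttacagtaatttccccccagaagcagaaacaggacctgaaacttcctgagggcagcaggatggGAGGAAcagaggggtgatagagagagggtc
C1qc, chr4:136892915-136893164, minus strand: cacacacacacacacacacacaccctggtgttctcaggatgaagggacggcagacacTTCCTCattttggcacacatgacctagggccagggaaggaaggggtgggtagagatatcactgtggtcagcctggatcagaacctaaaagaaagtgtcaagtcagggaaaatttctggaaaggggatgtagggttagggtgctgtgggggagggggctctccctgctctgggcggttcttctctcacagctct
Cd68, chr11:69666171-69666420, minus strand: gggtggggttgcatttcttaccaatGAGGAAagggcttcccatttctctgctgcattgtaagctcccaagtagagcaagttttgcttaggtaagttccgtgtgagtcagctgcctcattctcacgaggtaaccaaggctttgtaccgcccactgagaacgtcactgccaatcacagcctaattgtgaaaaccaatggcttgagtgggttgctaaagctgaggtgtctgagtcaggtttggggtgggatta
The core starts at position -30 in C1qb, -193 in C1qc and -225 in Cd68, counted from the RefSeq start site. For C1qc that site lies inside the gene span given above, which reaches 136893065, so part of the window overlaps the span. The windows of Lyz2 and Mrc1 overlap their spans too. The core was present in 5 of the 7 member windows and in 23.3% of all 32851 promoter windows of that length. The longer GAGGAAGT, which contains the core, was present in 1 of the 7, C1qc, where it lies on the other strand, and in 2.44% of all windows. Such matches describe the letters only.

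The tumors were compared with the controls by edgeR's quasi-likelihood test with Benjamini-Hochberg adjustment over all genes tested. The test gives no standard error, so each SE here is the size of the log2 fold change divided by the square root of the F statistic. Over all 9 tumors, 0 of the 10 genes passed an adjusted p of 0.05, where 0.0% of all genes passed as higher and 0.00494% as lower. Lyz2 had a log2 fold change of 4.94 (SE 1.52, adjusted p = 0.128 by edgeR) and Cd68 of 2.17 (SE 0.897, adjusted p = 0.186 by edgeR). These were the 2 members with an unadjusted p below 0.05, a level that 18.0% of all genes reached, and DESeq2 called 1 member higher, Lyz2, beside 10.1% of all genes. The median log2 fold change was 0.97 over the members and -0.45 over all genes. The members' median was 0.48 with RLE factors (DESeq2's median of ratios, as edgeR computes it), -1.20 with library totals and -0.89 on log2(TPM + 1).

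In tumors 1 to 6 against the controls, 2 of the 10 genes were called higher by edgeR and 0 lower, beside 21.4% of all genes called higher and 16.5% lower. Lyz2 was higher by 5.51 on the log2 scale (SE 0.797, adjusted p = 5.12e-05 by edgeR), in 6 of 6 tumors. Cd68 was higher by 2.64 (SE 0.687, adjusted p = 0.00751 by edgeR), in 5 of 6 tumors. For the other 8 the log2 fold changes were between 0.23 (Mertk) and 1.90 (C1qa), with adjusted p from 0.0683 (Adgre1) to 0.742 (Mertk). At an unadjusted p below 0.05 there were 4 members, Lyz2, Cd68, Adgre1 and C1qb, where 50.9% of all genes reached that level. The median was 1.31 over the members, -1.01 over all genes and 4.11 over ribosomal protein genes. The direction depended on the scaling: with library totals in place of TMM factors the median of all genes moved to -3.75, and only Lyz2 was called higher while 6 members were called lower, beside 4.37% of all genes higher and 76.5% lower. Without tumor 1 the log2 fold change was -0.12 for Mrc1 and -0.32 for Mertk. Without tumor 5, 4 members were called higher (C1qa, C1qb, Cd68 and Lyz2), beside 22.9% of all genes. Without tumor 6 there were also 4 (Adgre1, Cd68, Csf1r and Lyz2), beside 21.4% of all genes.

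Tumors 7 to 9 against the controls gave no call. By edgeR 0 of the 10 genes passed, and 0 had an unadjusted p below 0.05, where 0.0% of all genes passed in either direction and 1.34% had such a p. DESeq2 called 0 members as well. The members' log2 fold changes lay between -0.56 (C1qb) and 0.23 (Itgam), with a median of -0.00.

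Receptor genes also differed within tumors 1 to 6, and in much the same order as several members. Without the genes that led in any library, 1397 of them summed to 4922, 4480, 2623, 3222, 1437 and 1287 CPM in tumors 1 to 6, 8628, 8001 and 8088 CPM in tumors 7 to 9 and 7441, 7628 and 7721 CPM in the controls. Each member was therefore also set against the level expected from the receptor genes of its library and its own ratio to them in the controls, a measure chosen after seeing the data. In tumors 1 to 6, 55 of 60 values had a 95% counting interval above 1, beside 42.4% of all values of 35730 genes. The 5 values whose interval held 1 were Itgam in tumor 1, C1qa and C1qc in tumor 4, Mrc1 in tumor 3 and Mertk in tumor 6. These intervals cover the counting error of the member alone.

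The measured level was 41.3 to 237 times the expected level for Lyz2, 5.44 to 24.3 times for Cd68, 3.53 to 12.2 times for Adgre1, 3.09 to 11.3 times for C1qb and 2.52 to 8.74 times for Csf1r. It reached 1.15 to 11.4 times for Itgam, 1.24 to 21.8 for C1qa, 1.28 to 5.14 for C1qc, 1.28 to 8.30 for Mrc1 and 1.69 to 4.69 for Mertk. The median over the 10 genes and tumors 1 to 6 was 5.38, against 1.35 over all genes, 1.03 over 7 endothelial markers and 1.25 over 7 thymic epithelial markers. Higher medians than the members' were those of 12 T cell markers (76.7) and 16 lysosomal genes (11.8). The Fc receptor and adaptor genes stood at 3.78, dendritic cell markers at 2.53, scavenger genes at 2.22, fibroblast markers at 2.13, complement genes at 2.09 and engulfment genes at 1.98. Neutrophil markers were at 1.65, macrophage transcription factors at 1.43, NK cell markers at 1.22, B cell markers at 1.17, the CSF axis at 1.12 and erythroid markers at 0.822. In tumors 7 to 9 the members stood at 0.503 to 1.68 times the expected level, and 21 of 30 intervals held 1. The members' median was highest in tumor 2 (7.89) and tumor 1 (7.63) and lowest in tumor 4 (3.21).

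**Figure D3:**
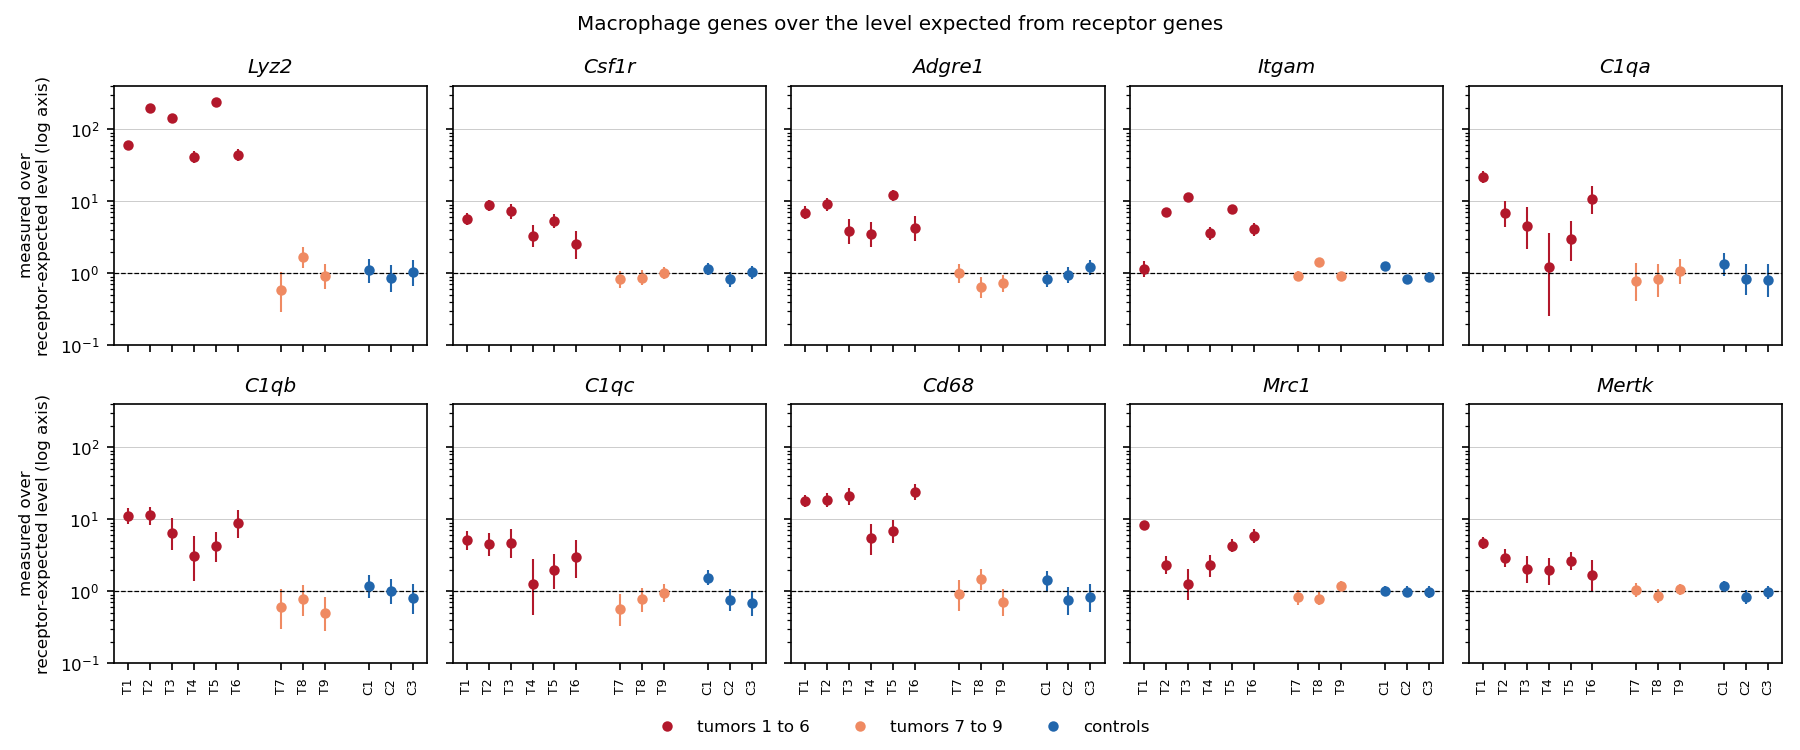
Measured level over the level expected from the receptor genes of the same library, on a log axis; bars are 95% counting intervals and the dashed line marks 1. Tumors 1 to 6 lie at 1.15 or more for all 10 genes, and tumors 7 to 9 lie at 0.503 to 1.68. The controls average 1 for each gene by construction, since they set the expected level.

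The question of whether these genes vary together as a trace of macrophages was put to tumors 1 to 6. Tumors 1 and 2 held most of the high values in CPM: tumor 1 was highest for C1qa, C1qb, C1qc, Cd68, Mrc1 and Mertk, and tumor 2 for Lyz2, Csf1r, Adgre1 and Itgam. Over all 20542 genes, tumor 1 was highest in CPM for 19.7% and tumor 2 for 16.2%. The TMM factors ran from 0.282 (tumor 4) to 0.852 (tumor 6), and the order depended on the scaling. By TPM, Adgre1 was highest in tumor 1 (0.724, against 0.641 in tumor 2). Itgam was highest by TPM in tumor 3 (1.46, against 1.39 in tumor 2). The other members kept their highest tumor. The 10 genes summed to 139, 215, 112, 50.8, 73.4 and 29.9 CPM in tumors 1 to 6, whereas tumors 7 to 9 had 27.7 to 30.9 CPM and the controls 24.6 to 32.5 CPM. Lyz2 took 23.9% to 58.6% of the counts in the sum. In these bulk samples, fewer macrophages and less RNA per macrophage cannot be told apart.

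Over tumors 1 to 6, all 9 other members had a positive Pearson r of log2 CPM with Csf1r, with a median of 0.81 against 0.12 over all 20541 other genes. By a two-sided exact permutation test over 720 pairings, 4 of the 9 had an unadjusted p below 0.05, beside 12.1% of all genes with such a p and a positive r, and 0 passed after Benjamini-Hochberg adjustment over all genes. These were Mertk (r = 0.89, exact p = 0.0181, rho = 0.89, exact p = 0.0333), C1qc (r = 0.88, exact p = 0.0319, rho = 0.89, exact p = 0.0333), Lyz2 (r = 0.85, exact p = 0.0333, rho = 0.71, exact p = 0.136) and Adgre1 (r = 0.84, exact p = 0.0389, rho = 0.77, exact p = 0.103). Their adjusted p values were 0.293, 0.313, 0.314 and 0.321. The r was 0.81 for C1qb, 0.70 for Cd68, 0.58 for C1qa, 0.57 for Itgam and 0.38 for Mrc1. Without tumors 2 and 6, the farthest from the median of Csf1r, r was 0.27 for Lyz2, 0.45 for Adgre1 and -0.15 for Itgam, so these relations rest on those tumors. It was 0.83 for Mertk, 0.91 for C1qa, 0.96 for C1qb and 0.99 or more for C1qc and Cd68. Without tumor 2 alone, 0 of the 9 had a p below 0.05.

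The co-variation was shared with the receptor genes. Their sum had r = 0.94 with Mertk (rho = 1.00), 0.91 with Csf1r (rho = 0.89), 0.84 with C1qc and 0.83 with C1qb, but 0.57 with Lyz2 and 0.31 with Itgam over the 6 tumors, given as a description of 10 relations among libraries that share their depth and scaling. With the expected level subtracted from every gene before taking logs, an alternative added after seeing the data, the median r with Csf1r was 0.79 over the 9 members and -0.24 over all genes. Then 2 of the 9, Lyz2 (r = 0.87) and Mertk (r = 0.84), had an unadjusted exact p below 0.05, beside 1.86% of all genes, and none passed after adjustment. Other lists varied in the same direction, counting genes with a mean of at least 1 CPM. The median r with Csf1r was 0.77 over endothelial, 0.75 over thymic epithelial, 0.74 over NK cell, 0.73 over neutrophil and 0.72 over dendritic cell markers, and -0.21 over T cell markers.

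Among the 45 pairs of members, 43 had a positive r over the 6 tumors, with a median of 0.68. The highest were C1qb with C1qc (0.96), Cd68 with C1qc (0.94), Cd68 with C1qb (0.94, rho = 1.00) and C1qa with C1qb (0.92). The C1q chains among themselves had 0.87 to 0.96, a range that also held Csf1r with Mertk (0.89), Csf1r with C1qc (0.88), Cd68 with C1qa (0.88) and Adgre1 with Mertk (0.87). The pairs with Lyz2 or Itgam had a median of 0.31, and the 28 pairs without them 0.77, a division made after seeing the values. Lyz2 and Itgam went together (0.73), and Itgam and Mrc1 ran opposite (-0.53). The 2 negative pairs were Itgam with Mrc1 and Itgam with C1qa (-0.17). All these are descriptions over 6 libraries.

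**Figure D4:**
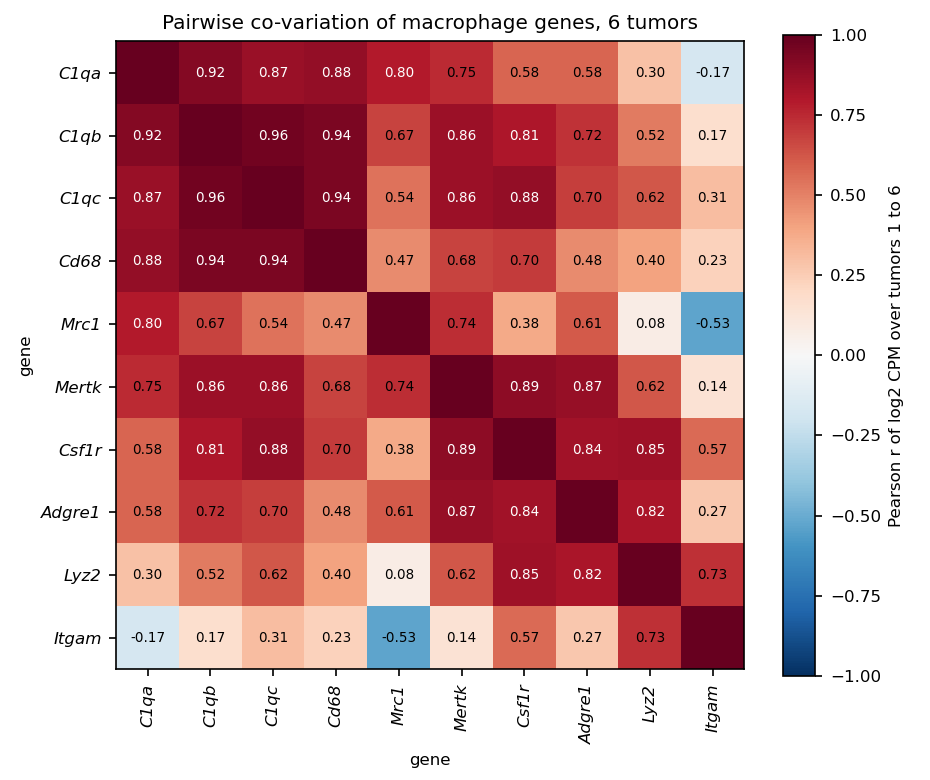
Pearson r of log2 CPM between each pair of the 10 macrophage genes over tumors 1 to 6. The highest values are those among C1qb, C1qc and Cd68 (0.94 to 0.96), and Itgam has the lowest values, down to -0.53 with Mrc1.

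Neutrophil markers peaked in the same tumor as some members, but their order in CPM over the rest of tumors 1 to 6 differed. The 12 neutrophil genes summed to 34.7, 360, 24.7, 47.8, 9.28 and 10.9 CPM in tumors 1 to 6, whereas tumors 7 to 9 had 46.3 to 51.2 CPM and the controls 42.4 to 47.3 CPM. All 12 were highest in tumor 2 among tumors 1 to 6, the tumor where Lyz2 and Itgam were highest in CPM. Itgam was at 34.4 CPM in tumor 3 and 13.2 CPM in tumor 4, against neutrophil sums of 24.7 and 47.8 CPM. S100a8 and S100a9, the calprotectin subunits abundant in neutrophils, were at 88.2 and 105 CPM in tumor 2 and at most 6.96 CPM in tumors 1 and 3 to 6. In tumor 5 Lyz2 was at 43.0 CPM while 5 of the 12 neutrophil genes were at 0 and the neutrophil sum was at its lowest. Over the receptor-expected level, the median of the neutrophil list was 1.14, 12.9, 1.92, 4.22, 0.558 and 0.938 in tumors 1 to 6. Outside tumors 2 and 4 it was thus 1.92 or less, and the CPM sums there give little measure of neutrophil RNA. The part of neutrophils in the Lyz2 and Itgam levels was not tested.

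**Figure D5:**
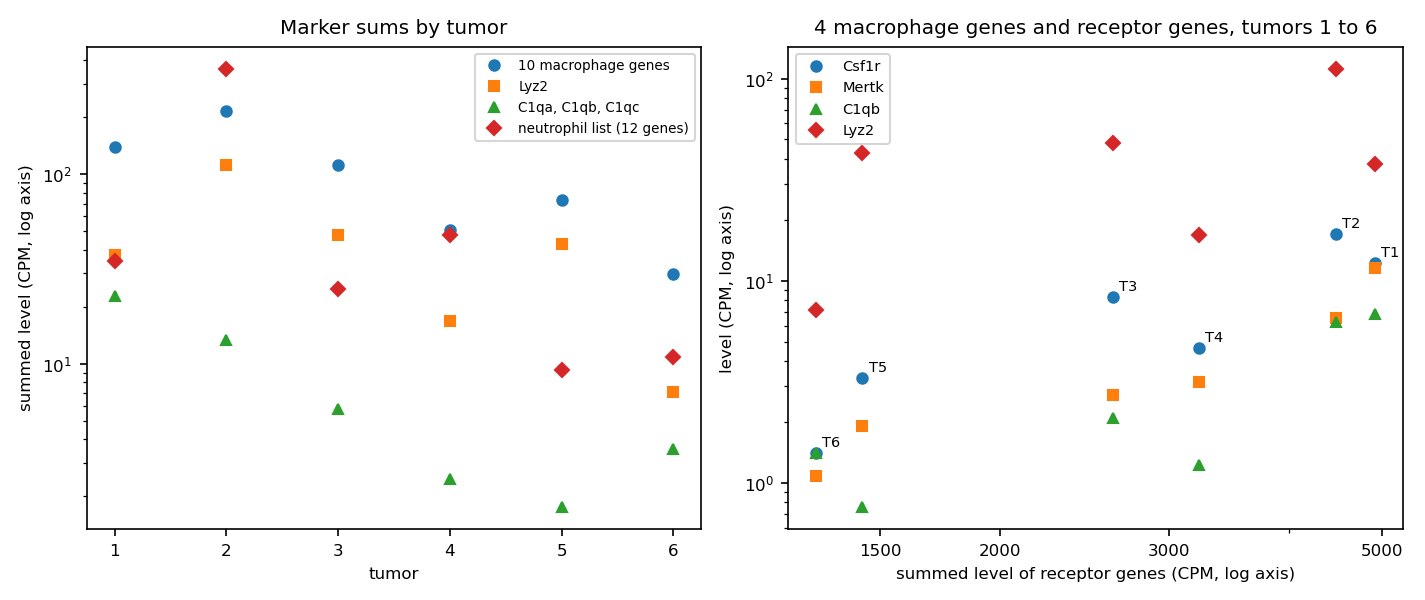
Left, summed CPM of marker sets in tumors 1 to 6 on a log axis; right, CPM of 4 macrophage genes against the summed CPM of receptor genes in the same 6 tumors, both axes log. The neutrophil sum peaks in tumor 2 at 360 CPM, and Csf1r and Mertk are high where the receptor genes are high.

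The genes around the members were taken from lists, and the counts below are those called by edgeR in tumors 1 to 6 against the controls, beside the 21.4% of all genes called higher and 16.5% lower. In the list paragraphs, higher or lower by library totals or TPM means only the sign of the log2 difference, which was not tested. Of 6 further genes of the CSF axis, 0 were called in either direction; Csf1 was at 0 to 2.35 CPM in tumors 1 to 6 and 3.17 to 3.60 CPM in the controls. Among 11 macrophage transcription factors, 1 was called higher (Irf8) and 1 lower (Spic). Spi1, which encodes PU.1, was at 2.57, 4.56, 1.48, 3.55, 0.877 and 0.382 CPM in tumors 1 to 6 and at 2.09, 1.35 and 1.58 CPM in the controls, so that tumors 1, 2 and 4 were above the controls and tumors 3, 5 and 6 within or below their range. Its r with Csf1r was 0.84. By library totals and by TPM, Irf8 was lower in these tumors.

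Of 10 Fc receptor and adaptor genes, 3 were called higher and 0 lower: Fcer1g, Tyrobp and Sirpa. By library totals only Tyrobp had a positive log2 difference from the controls (0.13), and by TPM none did. Tyrobp, the adaptor DAP12 of myeloid and NK cell receptors, was at 5.34, 15.4, 6.79, 7.64, 1.08 and 0.765 CPM in tumors 1 to 6, against 0.795, 0.437 and 0.526 CPM in the controls. Tumors 1 to 5 were above the controls and tumor 6 was not. Sirpa, the receptor for the CD47 signal that restrains engulfment, was at 30.3, 20.3, 9.51, 7.51, 2.55 and 1.78 CPM in tumors 1 to 6, against 3.41, 2.62 and 2.99 CPM in the controls. Tumors 1 to 4 were above the controls and tumors 5 and 6 below. The 10 genes of this list had a median r with Csf1r of 0.92, and all 10 were positive. Among genes with a mean of at least 1 CPM, this median was 0.84 over complement genes and 0.70 over the CSF axis. It was 0.69 over scavenger genes, 0.62 over engulfment genes, 0.62 over macrophage transcription factors and 0.59 over lysosomal genes. Of these lists, only the Fc receptor and complement genes were above the endothelial markers (0.77).

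Of 12 complement genes other than C1q, 2 were called higher and 0 lower, C3 and Itgb2, and C3 was not higher by library totals or TPM. C3, the central complement protein, was at 11.2, 88.9, 30.4, 4.50, 11.9 and 3.82 CPM in tumors 1 to 6, against 4.57, 4.69 and 4.37 CPM in the controls, highest in tumor 2. Itgb2, the beta chain that pairs with Itgam but also serves lymphocyte integrins, was at 27.4 to 80.1 CPM in tumors 1 to 6 and 2.23 to 5.27 CPM in the controls, with no overlap. Of 15 engulfment genes, 2 were called higher (Elmo1 and Itgav, the second not by library totals or TPM) and 0 lower. Abca1, a lipid exporter, was at 36.0, 28.9, 7.16, 6.82, 7.09 and 3.89 CPM in tumors 1 to 6, against 5.97, 7.35 and 8.42 CPM in the controls. Only tumors 1 and 2 were above the controls.

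Of 12 scavenger and resident macrophage genes, 1 was called higher and 0 lower. This was Apoe, a lipid carrier that macrophages secrete, at 89.8, 40.5, 28.0, 9.14, 8.53 and 16.4 CPM in tumors 1 to 6, whereas tumors 7 to 9 had 1.41 to 1.95 CPM and the controls 1.42 to 2.82 CPM. All of tumors 1 to 6 lay above the controls, with tumor 1 highest, and Apoe was higher by library totals and TPM too. Vcam1, an adhesion molecule of some tissue macrophages and of stroma, was at 37.1 CPM in tumor 1, 4.27 to 11.9 CPM in tumors 2 to 6 and 10.7 to 14.2 CPM in the controls.

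Of 16 lysosomal genes, 12 were called higher and 0 lower. Of these 12, 6 had a positive log2 difference by library totals (as small as 0.050 for Lamp2) and 4 by TPM, with no test. The median log2 fold change of the 16 was 2.29, against -1.01 over all genes. Ctss, a cathepsin of antigen-presenting cells, was at 24.4, 36.6, 13.3, 19.4, 11.7 and 3.63 CPM in tumors 1 to 6, against 1.16, 1.20 and 0.971 CPM in the controls, and had r = 0.92 with Csf1r. Psap, a lysosomal activator protein that most cells use, was at 75.1 to 123 CPM in tumors 1 to 6 and 3.08 to 4.21 CPM in the controls, with r = 0.43. Both genes were above every control in all 6 of these tumors.

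Of other cell markers in the same comparison, 12 of 12 T cell genes were called higher. By the sign of the log2 difference, 10 of them were also higher by library totals and 9 by TPM. Of 13 dendritic cell genes, 4 were called higher (Cd74, H2-Aa, H2-Ab1 and H2-Eb1, which belong to MHC class II presentation) and 0 lower. All 4 were higher by library totals, but H2-Aa and H2-Ab1 were not by TPM. Cd74 was highest in tumor 1 (109 CPM) and tumor 4 (90.2 CPM) and lowest in tumor 6 (8.35 CPM), an order that differed from that of the C1q chains in tumor 4. Of the 12 neutrophil genes, 2 were called higher, S100a8 and S100a9, and S100a8 was not higher by library totals or TPM. Fibroblast markers gave 2 higher and 0 lower of 7, neither of them higher by library totals or TPM, and endothelial markers 1 higher and 1 lower of 7. Thymic epithelial markers gave 0 higher and 2 lower of 7, B cell markers 1 higher and 1 lower of 10, erythroid markers 1 higher and 1 lower of 8, and NK cell markers 1 higher and 1 lower of 6.

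Genes most like Csf1r and most like the summed C1q chains were drawn from the 11477 genes with a mean of at least 5 CPM in tumors 1 to 6, by Pearson r over these 6 libraries. The 8 closest to Csf1r were Slfn3 (r = 0.997), Gm44822, 2900022M07Rik, Sv2c, Gm42887, Lins1, Slc18b1 and Gm43537 (r = 0.977). None of them was in the lists of macrophage genes. Slfn3 was at 49.3, 55.8, 45.3, 40.0, 34.9 and 28.2 CPM in tumors 1 to 6, the same order as Csf1r over a narrower range. The 8 closest to the C1q sum were Cd300a (r = 0.993), Apoe (r = 0.984), Glrb, Gm44783, St3gal4, F630040K05Rik, Slc17a5 and AC153962.3 (r = 0.957). Cd300a, an inhibitory receptor of myeloid cells, was at 19.5, 16.0, 12.7, 10.4, 9.32 and 10.4 CPM in tumors 1 to 6. With 6 libraries and 11477 genes, values this near 1 describe these libraries only.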

How the data were processed

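Per the submitters' processing notes, the authors used FastQC, kallisto and the mouse build mm10. The sources used here give neither versions nor the annotation release. Per the labels' protocols, total RNA was extracted with Trizol and read as paired ends of 75 bases. The authors deposited kallisto estimated counts per transcript (128622 transcripts), with transcript lengths, effective lengths and TPM values, per the file headers. Whether counting used strand is not given, so overlapping genes may share counts.

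Estimated counts were summed by symbol and rounded. Libraries held 8133152 to 34769946 counts, so 1 count was worth 0.0331 to 0.136 CPM after TMM scaling. The values of 3 controls, tumors 1 to 6 and tumors 7 to 9 were fitted with edgeR 4.0.16 in R 4.3.3 (TMM, filterByExpr by group, quasi-likelihood test, threshold 0.05), with DESeq2 1.42.0 and limma 3.58.1 on log2(TPM + 1) as alternatives. The edgeR test was tried on simulated counts, in a fit of tumor against control with a single tumor class. The simulated libraries shared a single expression profile apart from the changed genes, so the trial does not cover the unlike composition of the real libraries. Correlations used log2 CPM (prior count 2) and exact permutations (scipy 1.17.1). Coordinates are from GENCODE M21 on GRCm38, which is mm10.

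The members and lists were chosen with earlier results of these data known. Named were the 10 members, the 2 genes of each list with the highest mean CPM in tumors 1 to 6, up to 2 more of the macrophage lists by r with Csf1r, and the 8 genes most like Csf1r and the C1q sum; genes named beyond these (the called genes of a list, and Csf1) were chosen after their values were seen. Intervals and floors cover counting error only. The summary of the monocyte list is not reported here.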

Additional observations from a re-analysis of the deposited data

Results flagged for a closer look

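Over the 9 tumors, the highest library stood far above the next for 3 of the 10 genes. The gap to the next library was 0.574 of the whole range for Lyz2 in tumor 2, 0.744 for C1qa in tumor 1 and 0.812 for Mrc1 in tumor 1. These gaps passed Dixon's critical value for 9 values, 0.493, in 3 of 10 tests. Its chance rate of about 1 in 20 assumes values from a single normal distribution. These libraries of unlike composition do not meet that, so the rate is not known here. Tumors 7 to 9, whose libraries differ in composition, are among the 9.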

How the results depend on the processing

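Over all 9 tumors, where edgeR with TMM factors called 0 of 10 members, DESeq2 called 1 higher (10.1% of all genes), limma on log2(TPM + 1) called 7 lower (79.3%), the fit without tumors 7 to 9 called 2 higher (19.6%), and the fit with the replicate number as a block called 7 higher (20.7%). The replicate numbers did not pair the samples: same-numbered tumors and controls had deviation correlations of -0.03, 0.05 and 0.01, so the block groups libraries that share only a number. With the receptor density as a covariate, or with any 1 library left out, the count was 0. In tumors 1 to 6, where 2 were called, library totals gave 7 (1 higher and 6 lower, beside 4.37% and 76.5% of all genes) and limma on log2(TPM + 1) gave 9 (1 higher and 8 lower, beside 1.76% and 85.3%); leaving out 1 library gave 2 to 4. In tumors 7 to 9, limma on log2(TPM + 1) called 1 (C1qb, lower, beside 30.7% of all genes) and the other settings 0.

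Lyz2 stayed higher in all settings run for tumors 1 to 6. Against the controls, the log2 difference of tumors 1 to 6 turned negative with library totals and with log2(TPM + 1) for Csf1r (-1.60 and -0.99), Adgre1 (-1.36 and -0.91), Itgam (-1.67 and -1.81), C1qa (-0.84 and -0.87), C1qb (-1.07 and -0.97), C1qc (-2.18 and -1.61), Cd68 (-0.062 and -0.51), Mrc1 (-1.98 and -1.39) and Mertk (-2.57 and -1.32). Over all 9 tumors Cd68 did so too (-0.21 and -0.51). C1qc and Mertk were also negative with RLE factors (-0.013 and -0.37), DESeq2 (-0.016 and -0.37) and protein-coding genes only (-0.051 and -0.41). Leaving out 1 library gave -0.12 (without tumor 1) to 0.93 for Mrc1 and -0.32 (without tumor 1) to 0.44 for Mertk. These settings move the median of all genes, by construction, from -1.01 with TMM to -1.61 with RLE factors and -3.75 with library totals; the cause of the rest was not tested.

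The co-variation count, 4 of 9 beside 12.1% of all genes, was 0 with library totals (2.24%), 2 on log2(TPM + 1) (4.35%), 2 with the receptor level subtracted (1.86%) and 0 to 4 with 1 tumor left out (0 without tumor 2, beside 4.55%, 2 without tumor 3, beside 6.38%, and 2 without tumor 4, beside 9.81%); with 5 tumors, 120 pairings limit the exact p. Against the median in place of the pooled receptor density, 60 of 60 member values in tumors 1 to 6 were above 1, not 37, and 23 of 30 in tumors 7 to 9 and 23 of 30 in the controls; that median was 0 in tumor 5 and 0.020 CPM per kilobase in tumor 6, where the count is uninformative. The C1q shares in TPM differed by less than the spread between tumors. Low counts limit C1qa, C1qb and C1qc most, with as few as 3, 9 and 6 counts in tumor 4.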
